A study of Mus musculus with 9 samples.

Results

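The core circadian clock genes described here are 10 mouse genes taken by name from the deposited table: the activators Arntl and Clock, the repressors Per1, Per2, Per3, Cry1 and Cry2, the nuclear receptors Nr1d1 and Nr1d2, and the output factor Dbp. All 10 were among the 24532 genes of the table, and all 10 had enough reads to enter the test. The study sequenced polyadenylated RNA of neutrophils, the short-lived granulocytes of innate immunity, sorted on a flow cytometer from bone marrow, blood and lung. Every group was wild type and of the C57BL/6 strain, with no treatment named, so the labels set the groups apart only by tissue of origin. Each tissue had 3 biological replicates, 9 libraries in all. The sources used here do not give the age and sex of the mice, the sort markers, how the lung was dispersed or the hour of collection.

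The circadian clock is a loop of transcription that runs in nearly every cell. Arntl (also called Bmal1) and Clock form a dimer that binds E-boxes and switches on the Per and Cry genes, whose proteins return to the nucleus and restrain that dimer. The same dimer drives Nr1d1 and Nr1d2, which repress Arntl through ROR elements, and Dbp, which acts on D-boxes; Per1 and Per2 also answer acutely to glucocorticoid and cyclic AMP signals. In neutrophils Arntl is known for driving the daily ageing of the cells in blood. Because these transcripts cycle, their level in 1 sample depends on the hour at which it was taken.

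The promoters below are marked where their letters match elements of the loop, and belong to 5 of the members whose values are described. They are the 250 bases before the start site in RefSeq's promoter table of the build GRCm38.p6, written 5′ to 3′ along the gene's strand. Motif positions are those of a motif's first base. Capitals mark the E-box CACGTG, its variant CACGTT, the half-site AGGTCA of the ROR element and the D-box TTANGTAA, on either strand.
Per1, first start site, chr11:69098699-69098948, plus strand: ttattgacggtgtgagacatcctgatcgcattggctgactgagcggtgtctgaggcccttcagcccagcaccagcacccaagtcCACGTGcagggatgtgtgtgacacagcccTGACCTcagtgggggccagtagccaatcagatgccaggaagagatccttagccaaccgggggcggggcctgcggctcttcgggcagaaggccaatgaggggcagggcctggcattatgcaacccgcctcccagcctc
Cry1, chr10:85185055-85185304, minus strand: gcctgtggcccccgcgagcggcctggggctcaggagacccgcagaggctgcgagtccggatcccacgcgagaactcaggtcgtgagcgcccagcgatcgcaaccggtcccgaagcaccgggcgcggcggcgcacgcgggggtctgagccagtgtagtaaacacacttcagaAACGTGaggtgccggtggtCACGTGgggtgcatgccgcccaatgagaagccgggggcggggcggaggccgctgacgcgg
Cry2, chr2:92434070-92434319, minus strand: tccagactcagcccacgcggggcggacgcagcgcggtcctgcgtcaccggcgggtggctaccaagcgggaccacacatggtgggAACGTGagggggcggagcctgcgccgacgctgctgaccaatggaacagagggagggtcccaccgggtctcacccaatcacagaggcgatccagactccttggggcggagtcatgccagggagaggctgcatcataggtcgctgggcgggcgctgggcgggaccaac
Nr1d1, chr11:98775378-98775627, minus strand: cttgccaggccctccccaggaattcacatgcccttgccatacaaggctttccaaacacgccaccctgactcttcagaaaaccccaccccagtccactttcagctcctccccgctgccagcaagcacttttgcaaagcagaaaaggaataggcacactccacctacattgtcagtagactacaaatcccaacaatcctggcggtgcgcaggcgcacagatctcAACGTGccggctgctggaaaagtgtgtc
Nr1d2, chr14:18239107-18239356, minus strand: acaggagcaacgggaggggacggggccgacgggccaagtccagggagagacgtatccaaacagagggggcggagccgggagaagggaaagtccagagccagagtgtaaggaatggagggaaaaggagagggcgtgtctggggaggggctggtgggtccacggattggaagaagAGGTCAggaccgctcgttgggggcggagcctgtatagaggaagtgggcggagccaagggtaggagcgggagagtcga

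These 5 windows differ in the elements they hold. Per1 had an E-box 166 bases before the start and a half-site 137 bases before it, and Cry1 had an E-box at 60 bases beside a variant at 79. Cry2 held the E-box variant alone, 166 bases before the start, as did Nr1d1 at 28. Nr1d2 held a half-site at 77 bases and neither form of the E-box. The table matched 9 of the 10 members, with 13 promoters in all, and Per2 was not matched. Over the full windows, which run 50 bases past the start, CACGTG stood in 2 of the 13 and in 7.15% of the table's 32851 promoters. CACGTT stood in 3 of the 13 against 4.68%, AGGTCA in 4 against 16.3%, and TTANGTAA in 1, the promoter of Per3, against 2.32%. None of these motifs stood in the promoter of Dbp, at start site 1 of Arntl, at start sites 2 and 3 of Clock or at start site 2 of Per1. A match is a description of the letters, not a bound site.

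The libraries held 42045548 to 56796219 reads, and 11642 to 14584 genes had at least 10 reads. Counts of 3 reads correspond to 0.0528 to 0.0714 CPM, here a gene's reads scaled to its library's total without TMM factors, and the lowest member value was 12 reads of Nr1d1 in blood replicate 3. This covers counting error only. All 10 neutrophil markers were detected in every library. Marker sums are in CPM after TMM scaling, which adjusts the library totals. Those of neutrophils were 96700 to 140000 CPM in marrow, 28600 to 41400 in blood and 20200 to 36700 in lung. Markers of other cells were present too, and of the 10 lists drawn up for them, 5 had their lowest sum of the tissue in replicate 3 in each tissue. The 6 B cell markers summed to 24.6 CPM in marrow replicate 3 against 54.8 and 96.4, to 55.2 in blood against 324 and 341, and to 37.9 in lung against 347 and 404. The other 4 were the lists for erythroid cells, for endothelium, for proliferating progenitors, and for T and NK cells together. The 6 fibroblast markers of lung summed to 89.9 CPM in replicate 3 against 1280 and 1500. No B cell, T and NK cell or monocyte marker was at 0 in any library, while 1 to 4 of the 6 erythroid markers were at 0 in blood and lung. In sorted bulk samples such as these, fewer cells of a type and less RNA per cell cannot be told apart.

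Per1 stood far above the other members. Levels are compared between genes only in FPKM, the deposited reads scaled to transcript length and depth. Per1 was at 268 ± 44.7 FPKM in marrow, 258 ± 106 in blood and 292 ± 29.6 in lung (mean ± SD, n = 3). That put it at rank 175 to 375 of 24532 genes, and it made up 82.8% to 91.7% of the FPKM summed over the 10 members. Per2 followed at 15 ± 4.53, 18 ± 2.7 and 19.5 ± 4.26 FPKM in marrow, blood and lung. Cry1 came next at 9.5 ± 0.421, 12.8 ± 1.14 and 8.43 ± 0.144 FPKM. In each tissue the replicates of Per1, Per2 and Cry1 did not overlap one another or those of any lower gene. The other 7 had means of 3.16 FPKM or less. Per3 had the lowest mean in every tissue, at 0.134 ± 0.0387, 0.234 ± 0.0652 and 0.304 ± 0.137 FPKM. Its replicates overlapped those of Nr1d2 in every tissue, of Nr1d1 in blood and lung, and of Arntl in lung.

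**Figure D1:**
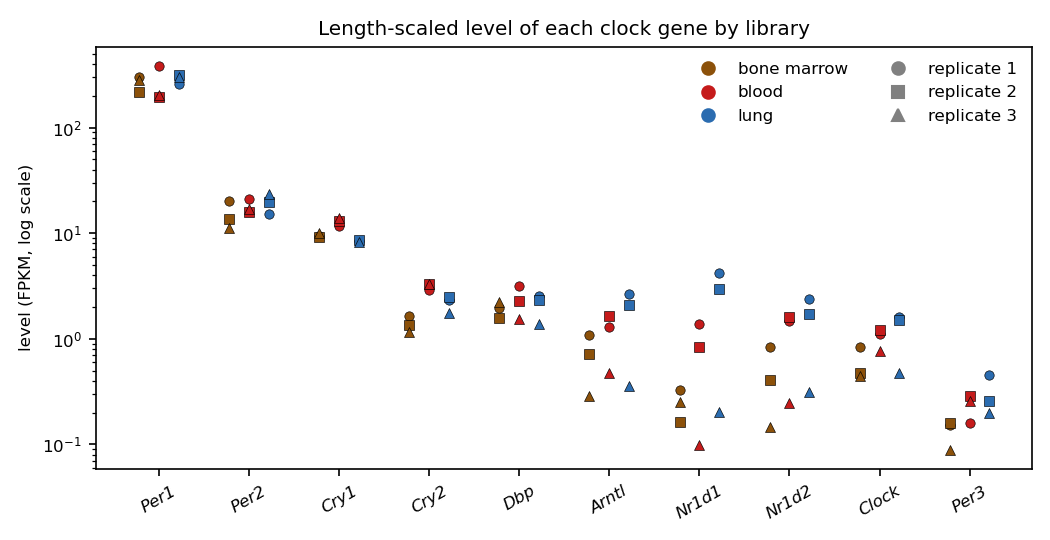
Level of each core clock gene in FPKM on a log axis, 1 point per library, colour for tissue and shape for replicate. Per1 lies between 193 and 381 FPKM, above Per2 and Cry1, while the 3 replicate 3 libraries are the lowest points of Arntl, Clock and Nr1d2 in their tissues.

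The order of the 7 lower genes changed with the tissue, within wide spreads. In marrow it ran Dbp, Cry2, Arntl, Clock, Nr1d2, Nr1d1, Per3. In blood Cry2 was ahead of Dbp, and in lung Nr1d1 took the place below Cry1 at 2.44 ± 2.03 FPKM, with replicates from 0.204 to 4.18. Of the genes next to each other in these orders, Cry2 and Arntl in marrow, Nr1d1 and Per3 in marrow, and Clock and Per3 in lung did not overlap, while the other neighbours among these 7 did.

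Arntl and Clock, the activating pair, were not called in any comparison. From here on, levels are CPM after TMM scaling and are compared between libraries, not between genes. Arntl (Entrez 11865, chr7:113207465-113314126 in mm10) was at 3.5, 2.31 and 1.13 CPM in marrow replicates 1, 2 and 3, at 3.55, 3.93 and 1.36 in blood, and at 6.74, 5.52 and 1.37 in lung. Replicate 3 was the lowest in each tissue, and the 3 tissues overlapped. Arntl gave a log2 fold change of 0.97 ± 0.66 (SE) in lung against marrow, with adjusted p = 0.274 by edgeR with Benjamini-Hochberg adjustment over all 13510 genes tested. Its changes were 0.35 ± 0.66 in blood against marrow and 0.62 ± 0.66 in lung against blood.

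Clock, the partner of Arntl (Entrez 12753, chr5:76209868-76304792), was at 8.89, 5.33 and 5.8 CPM in marrow, 10.3, 9.77 and 7.25 in blood and 13.4, 13.1 and 6.01 in lung. Lung replicates 1 and 2 were the highest of the 9, and lung replicate 3 lay within the range of marrow. Between lung and marrow the log2 fold change of Clock was 0.70 ± 0.34, with adjusted p = 0.131 by edgeR with Benjamini-Hochberg adjustment. The deposited table divides the reads of Clock among 3 transcript variants whose shares moved between libraries over nearly the full range, 0% to 96.9% for variant 1 and 1.8% to 97.5% for variant 3. These shares are the authors' estimates, and only the sum over the gene is used here.

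**Figure D2:**
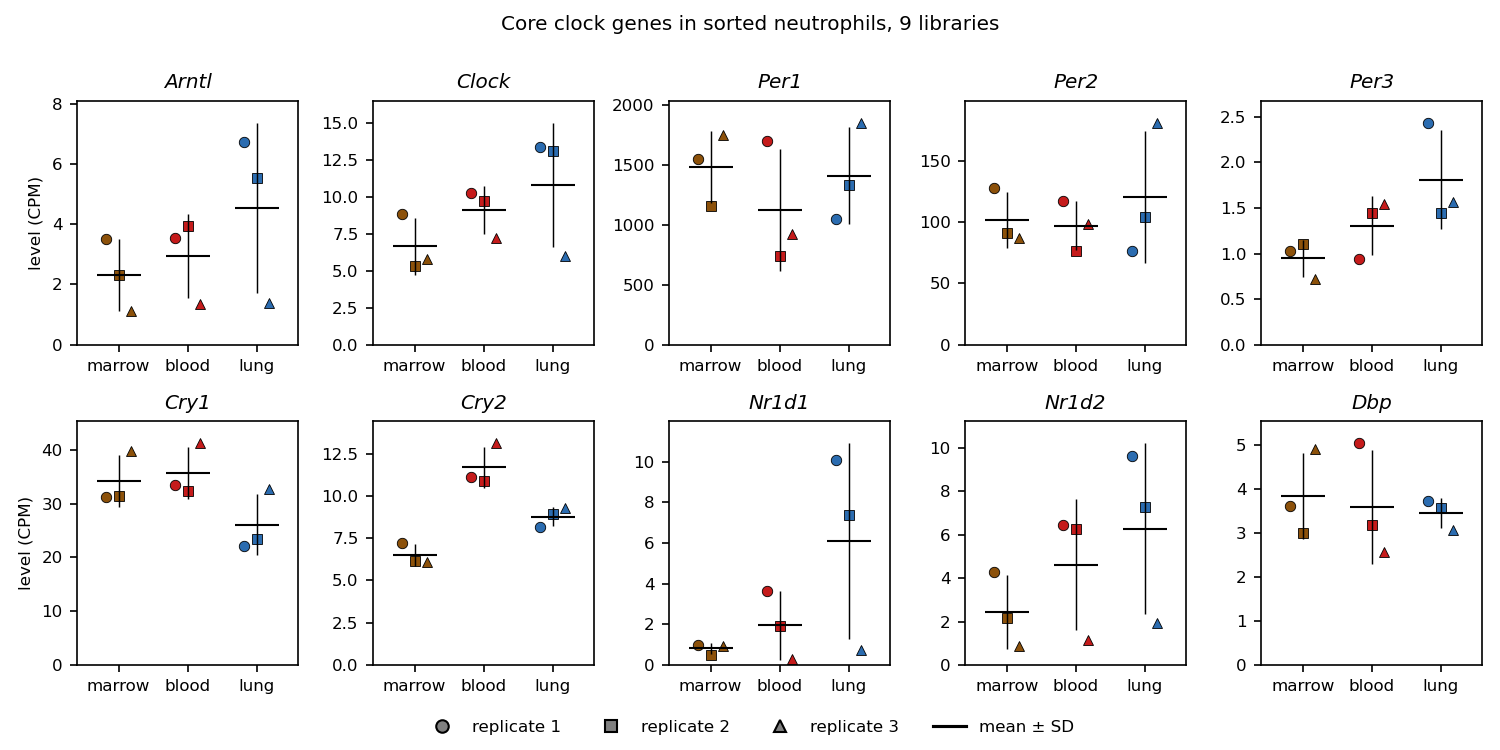
Level of the 10 core clock genes in CPM in each library, with points for replicates 1 to 3 and lines for the mean ± SD of each tissue (n = 3), each panel on its own linear axis from 0. Cry2 separates the 3 tissues, at 6.11 to 7.22 CPM in marrow, 8.14 to 9.26 in lung and 10.9 to 13.1 in blood, whereas the other genes overlap in at least 1 pair of tissues.

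Per1, the period gene that also responds acutely to hormones and cyclic AMP (Entrez 18626, chr11:69098956-69109957), was at 1550, 1160 and 1750 CPM in marrow, 1700, 744 and 927 in blood and 1050, 1330 and 1850 in lung. The spread within blood was 2.28-fold from its lowest to its highest library, and all 3 tissues overlapped. The log2 fold changes of Per1 were -0.40 ± 0.35 in blood against marrow, 0.33 ± 0.35 in lung against blood and -0.08 ± 0.35 in lung against marrow. None passed, with adjusted p from 0.466 to 0.878 by edgeR with Benjamini-Hochberg adjustment. One transcript variant held 98.1% to 99.4% of the gene's reads in every library.

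Per2, its paralogue (Entrez 18627, chr1:91415982-91459328), was at 128, 91 and 86.8 CPM in marrow, 117, 76.8 and 98.2 in blood and 76.7, 104 and 181 in lung. Lung replicate 3 was the highest of the 9 and lung replicate 1 and blood replicate 2 were the lowest. The log2 fold changes of Per2 lay between -0.07 ± 0.31 and 0.31 ± 0.31, with adjusted p of at least 0.513 by edgeR with Benjamini-Hochberg adjustment. In FPKM Per1 exceeded Per2 by 11.8 to 25.3 times, most in marrow replicate 3.

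Per3, the least abundant member (Entrez 18628, chr4:151003655-151044665), was at 1.03, 1.1 and 0.716 CPM in marrow, 0.937, 1.44 and 1.54 in blood and 2.43, 1.44 and 1.56 in lung, from 28 to 134 reads a library. All 3 lung libraries were above all 3 marrow libraries. Between lung and marrow the log2 fold change of Per3 was 0.93 ± 0.45 and did not pass, at adjusted p = 0.128 by edgeR with Benjamini-Hochberg adjustment; DESeq2 gave 1.06 with adjusted p = 0.0314.

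Cry2 was the only member called in the edgeR fit used for the values given here, in blood against marrow. The lack of a call does not show that the other members were unchanged. The product of Cry2 is a cryptochrome that represses the Arntl and Clock dimer, and the gene (Entrez 12953) lies at chr2:92403647-92434069. Cry2 was at 7.22, 6.12 and 6.11 CPM in marrow, 11.1, 10.9 and 13.1 in blood and 8.14, 8.91 and 9.26 in lung. No replicates of the 3 tissues overlapped, with blood highest, lung between and marrow lowest. Cry2 was 1.8-fold higher in blood than in marrow, a log2 fold change of 0.85 ± 0.17 with adjusted p = 0.00786 by edgeR with Benjamini-Hochberg adjustment. The call was made in all 19 alternatives run for it, with log2 fold changes of 0.73 to 1.15 and adjusted p from 0.000246 to 0.0495. The lung lay in between without passing against either side, at -0.41 ± 0.17 against blood (adjusted p = 0.0961) and 0.44 ± 0.17 against marrow (adjusted p = 0.068), both by edgeR. Scaling moved the latter past the threshold: Cry2 in lung against marrow was 0.58 with adjusted p = 0.0419 under RLE scaling and 0.74 with adjusted p = 0.00937 under upper-quartile scaling.

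Cry1, the other cryptochrome gene (Entrez 12952, chr10:85131700-85185054), was at 31.3, 31.4 and 39.7 CPM in marrow, 33.4, 32.4 and 41.2 in blood and 22.2, 23.4 and 32.7 in lung. After TMM scaling, replicate 3 was the highest of each tissue. Lung replicate 3 then lay within the blood range and above marrow replicates 1 and 2. Its TMM factor was 0.791, against 1.19 and 1.14 for lung replicates 1 and 2. In FPKM, lung replicates 1, 2 and 3 of Cry1 were at 8.46, 8.56 and 8.28. All were below marrow at 9.12 to 9.95 and blood at 11.6 to 13.8. The log2 fold change of Cry1 was -0.45 ± 0.19 in lung against blood and -0.39 ± 0.19 in lung against marrow, with adjusted p of 0.103 and 0.129 by edgeR with Benjamini-Hochberg adjustment. With the replicate number as a block, Cry1 passed in both, at -0.46 with adjusted p = 0.012 and -0.40 with adjusted p = 0.0159. Without lung replicate 3 it also passed in both, at -0.68 with adjusted p = 0.0157 and -0.62 with adjusted p = 0.0183. Between blood and marrow Cry1 was at 0.06 ± 0.19 with adjusted p = 0.857 by edgeR, but it passed on FPKM with limma, at 0.39 with adjusted p = 0.0278 on log2(FPKM + 1) and 0.42 with adjusted p = 0.0304 on log2(FPKM + 0.1).

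**Figure D3:**
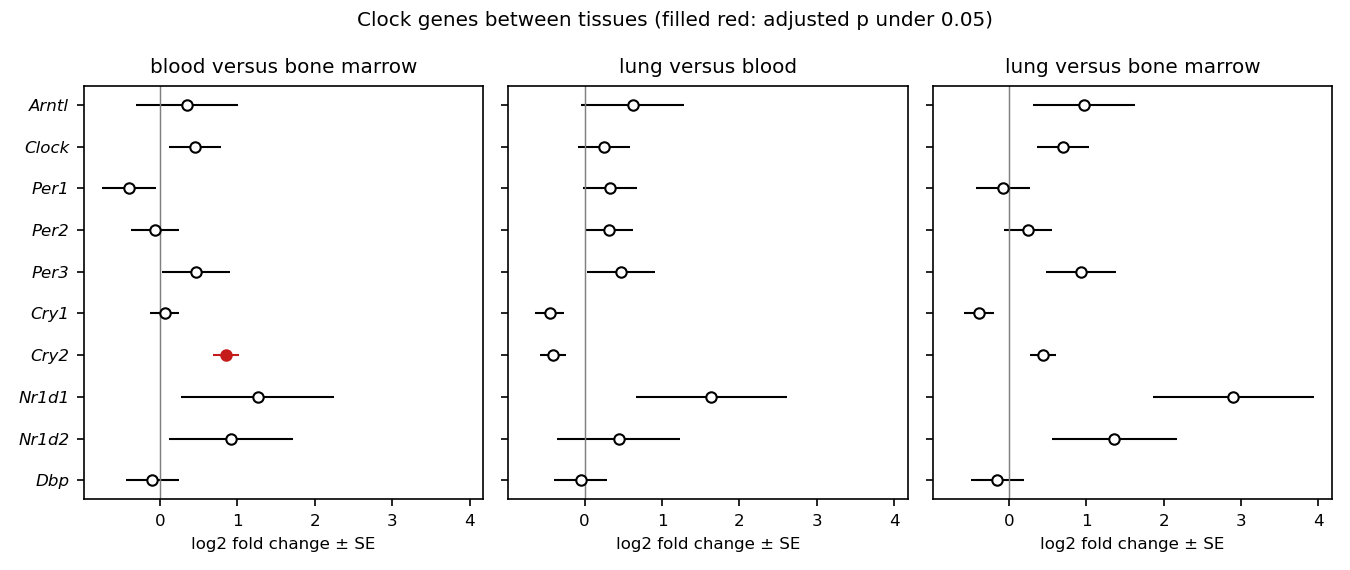
Log2 fold change of each core clock gene with its SE by edgeR in the 3 comparisons, filled where adjusted p was under 0.05. Cry2 in blood against bone marrow, at 0.85 ± 0.17, is the filled point, and Nr1d1 in lung against bone marrow, at 2.90 ± 1.04, has the largest change and the widest bar.

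Nr1d1 (Entrez 217166, chr11:98767932-98775377) encodes the heme-binding repressor Rev-erb alpha. Nr1d1 was at 1, 0.51 and 0.92 CPM in marrow, 3.64, 1.91 and 0.272 in blood and 10.1, 7.39 and 0.745 in lung. Lung replicates 1 and 2 were the 2 highest of the 9, while lung replicate 3 lay within the marrow range and blood replicate 3 below it. The mean of replicates 1 and 2 of Nr1d1 was 11.7 times replicate 3 in lung and 10.2 times in blood, but 0.821 times in marrow. The log2 fold change of Nr1d1 was 2.90 ± 1.04 in lung against marrow, just short of the threshold at adjusted p = 0.0527 by edgeR with Benjamini-Hochberg adjustment. It was 1.26 ± 0.99 in blood against marrow (adjusted p = 0.414) and 1.64 ± 0.98 in lung against blood (adjusted p = 0.252). In lung against marrow it passed in 8 of 19 alternatives, over a range of 1.23 to 3.52, and without lung replicate 3 it was 3.39 with adjusted p = 0.0126.

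Nr1d2 (Entrez 353187, chr14:18204056-18239106), which encodes Rev-erb beta, was also low in replicate 3. It was at 4.27, 2.16 and 0.895 CPM in marrow, 6.47, 6.26 and 1.13 in blood and 9.61, 7.29 and 1.94 in lung. Replicate 3 was the lowest in each tissue, and the mean of the other 2 was 3.59 times it in marrow, 5.63 times in blood and 4.36 times in lung. The log2 fold change of Nr1d2 was 0.92 ± 0.80 in blood against marrow, 0.44 ± 0.79 in lung against blood and 1.36 ± 0.81 in lung against marrow, the last with adjusted p = 0.212 by edgeR with Benjamini-Hochberg adjustment. With the replicate number as a block, Nr1d2 passed in lung against marrow, at 1.33 with adjusted p = 0.00712.

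Dbp, a PAR-bZIP factor whose cycle is steep in many tissues (Entrez 13170, chr7:45705247-45710203), was at 3.62, 3 and 4.91 CPM in marrow, 5.04, 3.18 and 2.56 in blood and 3.72, 3.57 and 3.08 in lung. The 3 tissues overlapped, and the means lay at 3.84 ± 0.974, 3.59 ± 1.29 and 3.46 ± 0.336 CPM. The log2 fold changes of Dbp were between -0.15 ± 0.34 and -0.05 ± 0.34, with adjusted p of at least 0.745 by edgeR. Exonic bases are given here for all GENCODE exons of a gene, whereas the reads are of RefSeq transcripts. Those of Dbp, Cry2 and Nr1d1 are 1678, 4001 and 2765 bases long, and the bases that they share with other genes were not counted. Of the 2993 exonic bases of Dbp, 539 overlap the antisense gene Sphk2, at 72.3 to 143 CPM in these libraries. In the same way 295 of the 6320 exonic bases of Cry2 overlap the antisense gene D930015M05Rik, which was listed at 0 reads in all 9 libraries. A further 263 of the 3077 exonic bases of Nr1d1 overlap the antisense gene Thra, at 5.66 to 15.6 CPM. The labels name both a standard and a stranded kit, and whether the counting used strand is not stated in the labels, so reads of a gene and its antisense partner in those bases cannot be told apart. The mean of Thra was lowest in lung and that of Nr1d1 was highest in lung. Within lung, Thra was at 12.0, 8.71 and 5.66 CPM in replicates 1, 2 and 3, and Nr1d1 fell in the same order. The part of Thra reads in the level of Nr1d1 was not tested.

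Counted over the 10 members, 1 passed in blood against marrow, higher in blood, while 0 passed in lung against blood and 0 in lung against marrow. Over all genes tested, edgeR called 21.4% in blood against marrow (8.34% higher in blood and 13.1% lower), 28.9% in lung against blood (13.2% higher in lung and 15.7% lower) and 38.2% in lung against marrow (15.6% higher in lung and 22.6% lower). Whether the members' 1, 0 and 0 of 10 differ from these shares was not tested. At an unadjusted p under 0.05, Cry1 and Cry2 passed in lung against blood, and Cry2 and Nr1d1 in lung against marrow. DESeq2 called 0 members in lung against blood and 4 in lung against marrow, namely Clock, Cry2, Nr1d1 and Per3, while it called 31.9% and 42.5% of all genes in these comparisons. Replicates of the 2 tissues did not overlap for 1, 1 and 2 members in the 3 comparisons, where 45.4%, 41.6% and 49% of all genes did not overlap. These were Cry2 in all 3 and Per3 in lung against marrow. The median log2 fold change of the members was 0.40, 0.32 and 0.57, against -0.05, 0.05 and 0.06 over all genes. The 3 comparisons share libraries, so they are not independent of each other.

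The balance of calls over all genes moved with the scaling. Genes higher in the first tissue made up 39.0%, 45.6% and 40.9% of calls in the order of comparisons above, but 52.6%, 55.9% and 59.3% under upper-quartile scaling, 43.1%, 56.9% and 52.0% under RLE scaling, 44.4%, 57.3% and 54.7% with DESeq2, and 67.1%, 32.4% and 48.9% on log2(FPKM + 1). The median over all genes moved to 0.11, 0.21 and 0.38 under upper-quartile scaling and to -0.01, 0.15 and 0.20 under RLE scaling. The differences of Per1, Per2 and Dbp, none of them called, changed sign under upper-quartile scaling in at least 1 comparison each.

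**Figure D4:**
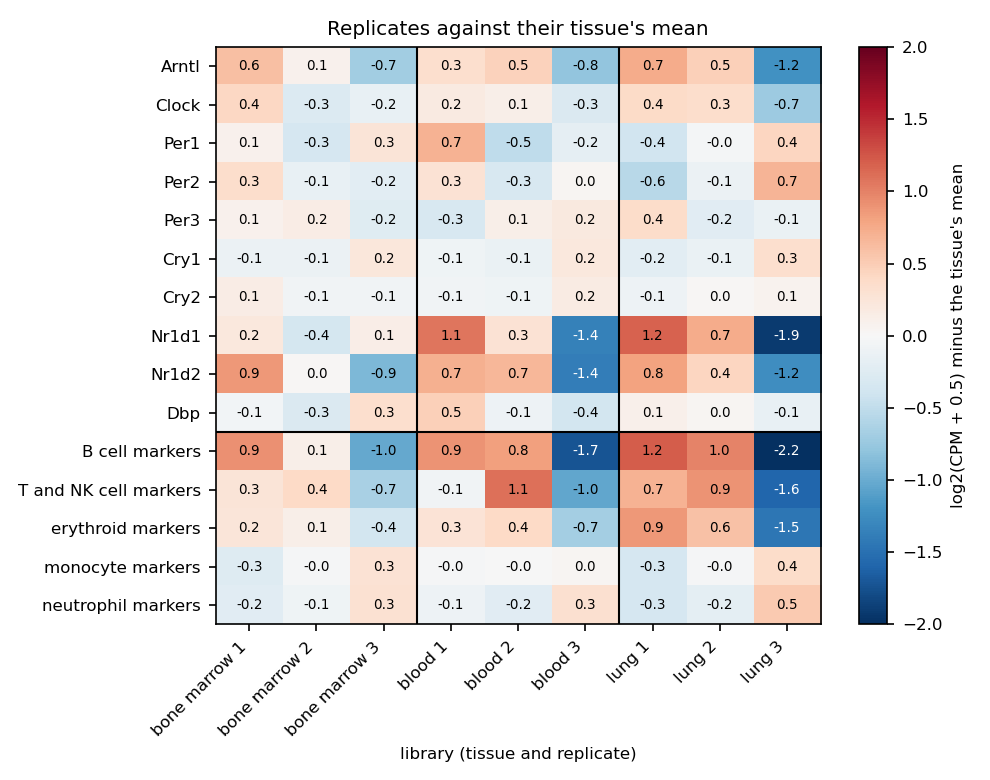
Difference of each library from its tissue's mean in log2(CPM + 0.5), for the 10 core clock genes and for the summed markers of 5 cell types, on a scale from blue (below) to red (above). Arntl, Clock, Nr1d2 and the marker sums of B cells, of erythroid cells and of T and NK cells are below the tissue mean in all 3 replicate 3 libraries, and Cry1 and the neutrophil and monocyte marker sums are above it, the monocyte sum by 0.03 in blood.

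The libraries numbered replicate 3 stood apart in Arntl and Nr1d2, and in blood and lung also in Nr1d1. Replicate 3 was the lowest library in all 3 tissues for Arntl and Nr1d2, which is 2 of 10 members (20%), and for 2550 of the 13510 genes tested (18.9%), so the members' share was near that of all genes. These counts are in TMM-scaled CPM, where it was the lowest in 2 tissues for Clock, Nr1d1 and Dbp, in 1 for Per2, Per3 and Cry2, and in none for Per1 and Cry1. In FPKM the replicate 3 libraries were also the lowest of Clock in each tissue, and the share of all genes was not counted in FPKM. These libraries also had the lowest sums of the 5 marker lists named above and the highest neutrophil marker sum. The part of those cells, or of any other property of these libraries, in the levels of the clock genes was not tested. Ratios here were taken after adding 0.5 CPM to each level. That offset shrinks ratios between low levels, such as that of Nr1d1, at 0.272 CPM in blood replicate 3. Ratios to Arntl did not move 1 way. The log2 ratio of Dbp to Arntl was highest in replicate 3 of each tissue, at 1.73 in marrow against 0.04 and 0.31, 0.72 in blood against 0.45 and -0.27, and 0.94 in lung against -0.78 and -0.57. That of Per1 to Arntl was also highest there, at 10.07, 8.96 and 9.95 in marrow, blood and lung. That of Nr1d1 to Arntl was lowest in replicate 3 in blood (-1.27) and lung (-0.58) but highest in marrow (-0.19). That of Nr1d2 to Arntl was lowest in replicate 3 in marrow (-0.22) and blood (-0.19), and in lung its replicates lay between 0.37 and 0.48. A shared number does not by itself say that libraries came from 1 mouse or 1 hour.

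Without the 3 libraries numbered replicate 3, a choice made after seeing the data, more members passed in the remaining 6. In lung against marrow 5 passed: Nr1d1 at 3.52, Nr1d2 at 1.38, Arntl at 1.05, Clock at 0.88 and Cry1 at -0.49 on the log2 scale, with adjusted p from 0.000635 to 0.0172 by edgeR. In blood against marrow 2 passed, Nr1d1 at 1.89 with adjusted p = 0.0174 and Cry2 at 0.73 with adjusted p = 0.0211. In lung against blood 2 passed, Nr1d1 at 1.62 with adjusted p = 0.0161 and Cry1 at -0.56 with adjusted p = 0.0104. The share of all genes called also grew, to 27.0%, 41.7% and 53.5% of 14529 genes in blood against marrow, lung against blood and lung against marrow. With these 6 libraries the B cell marker sum was 54.8 and 96.4 CPM in marrow against 324 to 404 in blood and lung. Cells of the lung itself differed more: the 6 fibroblast markers summed to 1280 and 1500 CPM in lung replicates 2 and 1, against 41.1 and 43.5 in marrow and 7.82 and 42.2 in blood. The 6 lung epithelium markers summed to 273 and 876 CPM in lung, against 13.8 to 22.5 in marrow and blood. The 6 macrophage markers summed to 993 and 1190 in lung, against 230 and 237 in blood, but to 861 and 993 in marrow. Over all 9 libraries the macrophage marker Chil3 had a mean of 938 CPM in marrow and 595 in lung. Marco, Mrc1, C1qa, Siglecf and Adgre1 were at 18.7, 55.3, 20.4, 40 and 86.5 in lung. In marrow they were at 0.416, 1.91, 0.829, 11.3 and 49.7. None of the 6 markers of each of these 3 lists was at 0 in lung. The part of these cells in the differences was not tested.

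The genes most like 5 of the members were taken by the Pearson correlation of log2(CPM + 0.5) over the 9 libraries, among 6284 genes with a mean of at least 10 CPM. These correlations describe libraries that share tissue and replicate differences, and carry no test. Arntl was closest to Foxo1 (r = 0.992), Mybbp1a (0.991) and Snd1 (0.985). Clock was closest to Camk2d (0.967), to Ms4a1 (0.954), which is one of the B cell markers, and to Prpf19 (0.933). Nr1d1 was closest to Pdia4 (0.957), Lrpap1 (0.955) and Snx5 (0.947). Per1 had other neighbours, Slc20a1 (0.96), Rragc (0.93) and Plk3 (0.919). Dbp was closest to Ciart (0.824), a clock repressor, then to Insig1 (0.809) and Yrdc (0.799).

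Other genes of the clock were followed as a list. Of 25 genes around the loop, 23 had enough reads to test. In blood against marrow 1 was higher and 2 were lower, in lung against blood 4 were higher and 1 lower, and in lung against marrow 3 were higher and 5 lower. Over all genes, 21.4%, 28.9% and 38.2% were called in these comparisons, and 8.34%, 13.2% and 15.6% were higher. Replicates did not overlap for 7, 7 and 12 of the listed genes, against 45.4%, 41.6% and 49% of all genes. The median log2 fold changes of the list were -0.12, 0.64 and 0.70. With the replicate number as a block, 5 passed in blood against marrow, 8 in lung against blood and 9 in lung against marrow, where that fit called 29.5%, 35.2% and 44.2% of all genes. Whether the core members and these genes differ was not tested.

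Usp2, a deubiquitinase of clock proteins, was higher in lung than in both other tissues. It was at 8.61, 4.39 and 4.04 CPM in marrow, 6.28, 4.35 and 5.03 in blood and 29.1, 30.3 and 67.4 in lung, with no lung library near the others. On the log2 scale Usp2 was higher by 3.02 ± 0.42 against blood (adjusted p = 0.00141) and 2.90 ± 0.42 against marrow (adjusted p = 0.000793), by edgeR with Benjamini-Hochberg adjustment. Noct, a rhythmic phosphatase known as Nocturnin, was at 31, 33.5 and 45.9 CPM in marrow, 19.4, 5.39 and 5.39 in blood and 73.3, 73.1 and 121 in lung. It was lowest in blood, at -1.87 ± 0.50 against marrow (adjusted p = 0.0289), and higher in lung than in blood by 3.15 ± 0.52 (adjusted p = 0.00321). The fall of Noct in blood was called in 11 of 19 alternatives, and lost its call without any 1 marrow library, blood replicate 2 or blood replicate 3, at adjusted p from 0.0563 to 0.12.

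Nampt, the NAD-salvage enzyme that the clock drives, was at 226, 272 and 266 CPM in marrow, 82.8, 71 and 70.3 in blood and 87.6, 113 and 153 in lung. On the log2 scale Nampt was at -1.77 ± 0.21 in blood against marrow (adjusted p = 0.000618) and -1.11 ± 0.21 in lung against marrow (adjusted p = 0.00323) by edgeR. Its rise of 0.66 ± 0.21 in lung against blood was called in 8 of 20 alternatives, and was 0.40 without lung replicate 3. Cipc, an inhibitor of Clock, was at 6.1, 4.92 and 4.86 CPM in marrow, 13.8, 10.9 and 9.76 in blood and 13.3, 12.4 and 19.2 in lung. All marrow libraries were the lowest. Cipc was higher by 1.12 ± 0.23 in blood (adjusted p = 0.00896) and 1.5 ± 0.23 in lung (adjusted p = 0.00111) than in marrow by edgeR. The first of these was 1.06 with adjusted p = 0.0561 without blood replicate 1.

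**Figure D5:**
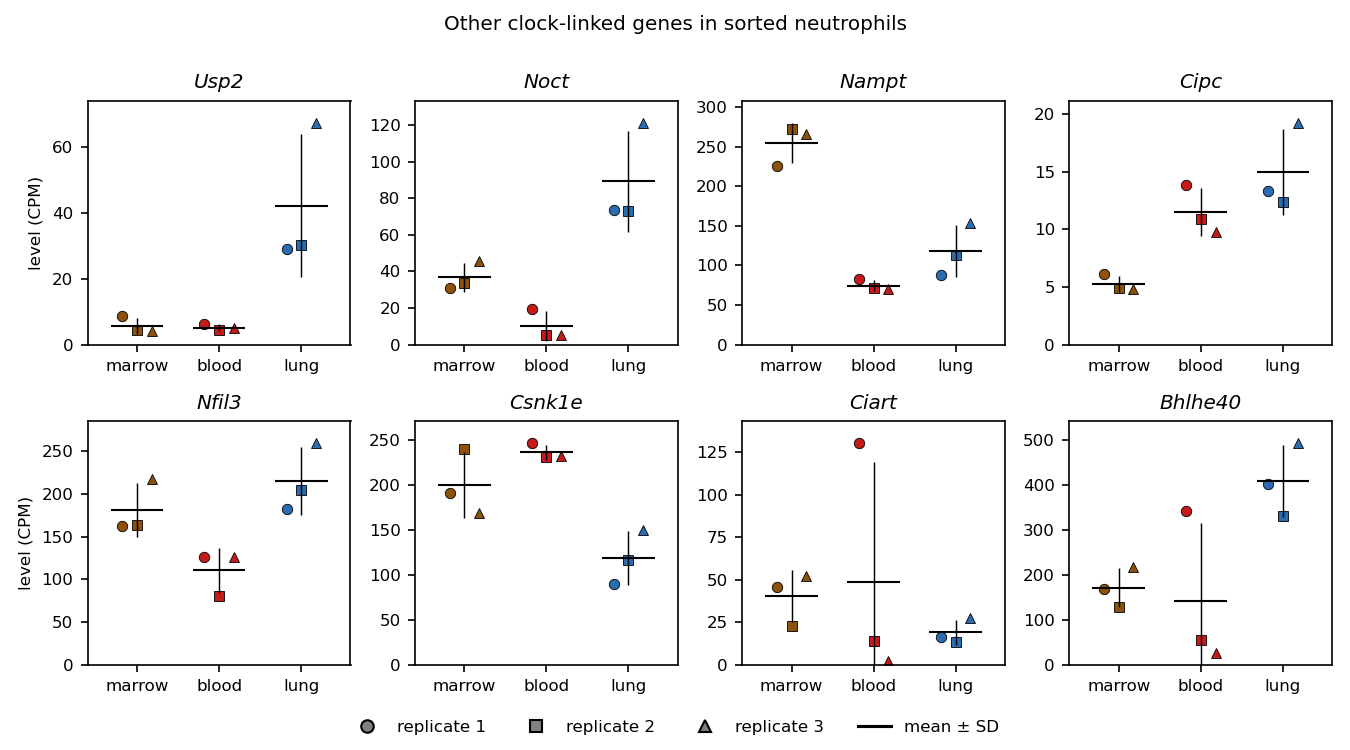
Level of 8 other clock-linked genes in CPM by library, with points for replicates 1 to 3 and lines for the mean ± SD of each tissue (n = 3), where SD lines that would pass below 0 end at the axis. Usp2 and Noct are highest in the 3 lung libraries and Nampt in the 3 marrow libraries, while blood replicate 1 stands above the other blood libraries in Ciart and Bhlhe40.

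In lung against blood, Nfil3, which competes with Dbp for D-boxes, was higher by 0.96 ± 0.23 (adjusted p = 0.0139), and Csnk1e, a kinase of the period proteins, was lower at -1.0 ± 0.21 (adjusted p = 0.0087), by edgeR. Neither passed when any 1 blood library was left out. In lung against marrow, Btrc and Gsk3b were lower, each at -0.60, and were called in 12 and 9 of 19 alternatives. The other 3 called there were Rora at 3.04, Csnk1e at -0.76 and Nono at -0.34, named after their values were seen, and they were called in 11, 6 and 4 of 19 alternatives. Rora, an activator at the ROR element, had lung levels of 9.32 and 7.87 CPM in replicates 1 and 2 but 1.39 CPM in replicate 3, against 0.384 to 1.14 CPM in marrow.

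Ciart and Bhlhe40, both repressors of the Arntl and Clock dimer, were high in blood replicate 1; they did not pass and were named after their values were seen. Ciart was at 130, 14.1 and 2.36 CPM in blood, 45.6, 23.1 and 52.4 in marrow and 16.3, 13.5 and 27.4 in lung. Bhlhe40 was at 343, 56.4 and 25.5 CPM in blood, 168, 130 and 217 in marrow and 403, 332 and 493 in lung. In TMM-scaled CPM, blood replicate 1 was also the highest blood library of Clock, Per1, Per2, Nr1d1, Nr1d2 and Dbp. In FPKM, blood replicate 2 was above it for Clock (1.22 against 1.11) and Nr1d2 (1.62 against 1.46). Blood replicate 1 was highest in 12 of the 19 immediate early and CREB response genes described next. The same held for 8 of 12 glucocorticoid and stress response genes, 13 of the 25 listed clock genes and 2 of 5 genes of the neutrophil ageing programme. The share of all genes for which blood replicate 1 was the highest of blood was not counted. Egr1, an immediate early gene, was at 7150, 2550 and 2300 CPM in blood, and Cxcl2, a chemokine gene, at 3140, 807 and 235. Other immediate early genes were highest in blood replicate 3, such as Fos at 3600, 3590 and 7780 CPM and Jund at 1170, 1060 and 1350. The part of any such response in the clock gene levels of blood replicate 1 was not tested.

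Signals that act on the Per genes were followed through their response genes. Of 12 glucocorticoid and stress response genes, 2 were higher and 1 lower in blood than in marrow, 2 higher and 2 lower in lung than in blood, and 2 higher and 3 lower in lung than in marrow. EdgeR called 21.4%, 28.9% and 38.2% of all genes in these comparisons, and 8.34%, 13.2% and 15.6% as higher. The list went both ways. Klf13, a Kruppel-like factor, was lower in lung, at -1.51 ± 0.22 against blood (adjusted p = 0.00177) and -1.55 ± 0.22 against marrow (adjusted p = 0.000773) by edgeR. Tsc22d3, a glucocorticoid-induced gene, was lower there too, at -1.91 ± 0.33 (adjusted p = 0.00371) and -1.55 ± 0.33 (adjusted p = 0.00616). Zbtb16, another glucocorticoid-induced gene, was higher than in marrow by 1.75 ± 0.28 in blood (adjusted p = 0.00296) and 1.24 ± 0.28 in lung (adjusted p = 0.00785). Of 19 immediate early and CREB response genes, 2 were higher and 1 lower in blood than in marrow, and 6 were higher and 2 lower in lung in both of its comparisons. Crem, a cyclic AMP-responsive factor, was higher in lung than in blood by 5.01 ± 0.32 (adjusted p = 0.000129 by edgeR). Ier2, an immediate early gene, was lower there, at -1.41 ± 0.20 (adjusted p = 0.00144 by edgeR). Per1 in the same comparison was at 0.33 ± 0.35, and the part of these signals in its level was not tested. Of 5 genes of the neutrophil ageing programme, 1 was higher in blood than in marrow, and 1 was higher and 1 lower in lung in both of its comparisons. These were Icam1, an adhesion molecule, at 1.79 ± 0.31, 3.69 ± 0.33 and 5.48 ± 0.36 in the order of comparisons above, and Cxcr2, a chemokine receptor, at -1.91 ± 0.36 against blood and -1.59 ± 0.35 against marrow.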

How the data were processed

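RNA of sorted neutrophils was sequenced from 3 tissues with 3 replicates each. Per the submitters' processing notes, Bowtie2, STAR, StringTie 2.1.3b, RSEM and DESeq2 were used with build mm10, with no role named for any of them. The series table deposited by the authors holds, per the file headers, read counts and FPKM of 36780 RefSeq transcripts. The authors' deposited blood and lung files hold RSEM expected counts, which served as an alternative after rounding; the table's reads were 1.874 to 1.903 times these, so intervals from reads would be too narrow if each fragment was counted for both mates.

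Counts and FPKM were summed by Entrez gene. Genes kept by filterByExpr (13510) were fitted with edgeR 4.0.16 (robust quasi-likelihood, TMM, all 9 libraries), two-sided, with Benjamini-Hochberg adjustment over all genes and called at 0.05; edgeR's common coefficient of variation was 0.448. Each SE was derived from F, as the size of the log2 fold change over F's square root. The fit was tested on simulated data. Alternatives used DESeq2 1.42.0 and limma 3.58.1. Scripts ran in R 4.3.3 and Python 3.11.15, with matplotlib 3.10.9, numpy 2.4.6 and pandas 2.3.3. The members, lists and tests were chosen with earlier results of these data known. All members are named; from each other list at most 5 genes per comparison, among the 5 smallest adjusted p of those that passed, and the 3 most alike genes for 5 members. Exceptions named after their values were seen are Ciart, Bhlhe40, Egr1, Cxcl2, Fos and Jund by library, the macrophage markers by tissue, and 3 genes marked so in the text.

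Titles of the 3 tissues share replicate numbers. The correlation of deviations from tissue means was 0.114 to 0.539 in the 9 same-numbered pairs and -0.581 to 0.496 in the other 18. Every same-numbered pair met the rule used (over 0.1), but the ranges overlap. Replicate 3 pairs were at 0.493, 0.225 and 0.524. Blood replicate 2 was closer than blood replicate 1 to marrow replicate 1 (0.496 against 0.173) and to lung replicate 1 (0.488 against 0.114). Deviations within a tissue depend on each other, so the rule cannot decide whether the numbers pair the libraries. The labels name no shared mouse or day. Titles' numbers are used; column numbers run 1 higher. Nothing beyond the term "biological replicates" says that replicates came from separate mice, and p-values measure the spread between these libraries.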

Additional observations from a re-analysis of the deposited data

How the results depend on the processing

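The call of Cry2 in blood against marrow was kept in all 19 alternatives. Of 580 alternative values of the members, 506 kept direction and side of the threshold, 30 newly passed, 0 lost a call and 44 changed sign, none of them called in either fit. Members called in blood against marrow went from 1 to 2 on FPKM with a pseudocount of 1 or 0.1 and without the replicate 3 libraries, and stayed at 1 when any 1 library was left out. In lung against blood they went from 0 to 1 with the replicate block and on FPKM at both pseudocounts, to 2 without the replicate 3 libraries and to between 0 and 1 with 1 library left out. In lung against marrow they went from 0 to 4 with DESeq2, to 2 under RLE scaling, upper-quartile scaling and the replicate block, to 1 in the fit of 6 libraries of the 2 tissues, to 5 without the replicate 3 libraries, and to between 0 and 3 with 1 library left out (3 without lung replicate 3, and 1 without blood replicate 1 or 3). These fits called 42.5% (DESeq2), 34.6% (RLE), 38.7% (upper-quartile), 44.2% (block), 31.2% (6 libraries) and 53.5% (without the replicate 3 libraries) of all genes in lung against marrow. There the share was 47.8% without lung replicate 3, 28.4% without blood replicate 1 and 31.9% without blood replicate 3. With 1 library left out it was 8.51% to 27.1% in blood against marrow and 13.2% to 40.1% in lung against blood. In blood against marrow the 2 FPKM fits called 24.9% and 24.6%, and in lung against blood 31.9% and 32.5%, with 35.2% under the block. The replicate block changed no member's call beyond Cry1 and Nr1d2. The cause was not tested. Signs changed for Per1 in lung against marrow to 0.09 (DESeq2 and RLE), 0.22 (upper-quartile), 0.05 (no filter) and 0.13 (FPKM, both), and in lung against blood to -0.07 without the replicate 3 libraries. Per2 in blood against marrow changed to 0.07 (upper-quartile), 0.02 (no filter), 0.09 (6 libraries), 0.28 and 0.29 (FPKM), and without the replicate 3 libraries Per2 was -0.13 in lung against blood and -0.30 in lung against marrow. Dbp in blood against marrow changed to 0.07 (upper-quartile), 0.06 (6 libraries), 0.17 and 0.22 (FPKM) and 0.32 (without the replicate 3 libraries). Dbp in lung against blood changed to 0.04 (DESeq2 and RLE), 0.02 (limma-voom) and 0.11 (upper-quartile), and in lung against marrow to 0.18 (upper-quartile), 0.07 and 0.09 (FPKM) and 0.11 (without the replicate 3 libraries). Some members' signs also changed with 1 library left out at a time. Over all such fits the values ranged from -0.02 to 0.24 for Cry1 in blood against marrow and from -0.06 to 0.83 for Nr1d2 in lung against blood. For Per1 in lung against marrow the range was -0.36 to 0.10. For Per2 it was -0.17 to 0.18 in blood against marrow, -0.14 to 0.55 in lung against blood and -0.21 to 0.48 in lung against marrow. For Dbp it was -0.32 to 0.16, -0.24 to 0.24 and -0.34 to 0.04 in the same order.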
